A study of Mus musculus with 4 samples.

Results

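The tumour necrosis factor (TNF) superfamily ligands and receptors considered here are the 29 genes, of 27827 gene names on the array, whose scanner name is a numbered member of the superfamily (Tnfsf4, Tnfrsf1a and so on), with 1 gene set aside. They comprise 10 ligands and 19 receptors. Each gene is represented by its brightest probe, taken over both channels of all arrays. The measurements come from 4 two-colour Agilent 44K mouse arrays hybridised with total RNA of cultured spermatogonial stem cells, which sustain sperm production by renewing themselves. On each array the Cy3 channel held cells deprived of FGF2 and given SU5402, an inhibitor of the FGF receptor tyrosine kinase, for 12 h (a condition named -F+S), and the Cy5 channel held cells in normal culture. Normal medium, free of serum, contained FGF2 at 5 ng/ml and GDNF at 40 ng/ml, and both cultures carry the same labels for age (day 5) and strain (C57/BL6 x DBA/2 F1). The design names 4 -F+S and 4 control biological replicates, so each array pairs 1 of each. The comparison asks which transcripts depend on FGF2 signalling. Withdrawal of FGF2 and addition of SU5402 were combined in -F+S, so effects of either cannot be told apart here. The sources used here do not say whether feeder cells were present or for how long the control cells were cultured after passage. Dyes were not swapped, so a dye effect specific to a probe and an effect of -F+S cannot be told apart.

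TNF superfamily ligands are mostly membrane-bound trimers, some of them released by cleavage, that cluster receptors with cysteine-rich extracellular domains. Receptors with a cytoplasmic death domain can recruit adaptors such as TRADD and FADD and couple to NF-kB or to caspases, whereas most others bind TRAF proteins directly and activate NF-kB and MAP kinases. Decoy receptors bind a ligand without passing on such a signal. Many members are best known from lymphocytes and other leukocytes, while TNF receptor 1, Fn14 and osteoprotegerin are also expressed by stromal and epithelial cells.

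Between 26613 and 28496 probes per array were well above background in the -F+S channel and between 25533 and 27891 in the normal culture channel, with 0 saturated spots. Between arrays, Pearson's r of the log2 ratios of -F+S over normal culture was 0.906 to 0.947 over genes, which are not independent replicates. Of the list of germ cell markers chosen here, 16 of 16 were measured, each well above background on all arrays in both channels. The same held for every listed marker of fibroblasts and of macrophages and other leukocytes. All 4 arrays lay on 1 slide and were read in 1 scan.

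Changes in the superfamily ran in both directions. Of the 29 genes, 23 passed the filter on dim probes (1 channel had to be well above background on 3 or more arrays), 11 of these were called higher in -F+S than in normal culture, 9 were called lower, and 3 passed the filter without a call. A call means an adjusted p under 0.05 in limma's moderated test, adjusted over the 18491 genes tested. The same test called 37.5% of all genes higher and 30.9% lower, 68.4% in either direction, beside 47.8% and 39.1% of the 23 tested members, and these shares are descriptions without a test of their own. The median log2 ratio was 0.33 for the 23 tested members and 0.023 for all genes tested, and over all 29 members, dim ones included, it was -0.018. With both channels required above background on all arrays, 18 members were tested, 7 were called higher and the median was -0.15, so the median above 0 rests on members that are dim in normal culture. Median centring in place of loess gave 12 members called higher and 3 lower, and 5519 and 3585 of all genes. With the offset of 50 used here, 4 members differed by 2-fold or more: Tnfrsf12a, Tnfrsf1a and Tnfrsf11b were higher in -F+S cells, and Tnfrsf9 was lower. Among the 18491 genes tested, 2153 were called and at least 2-fold higher, and 306 were called and at least 2-fold lower. With the scanner's processed signals Tnfrsf11a (log2 ratio 1.58), Tnfrsf14 (1.21) and Tnfsf4 (-1.30) also passed 2-fold. On all 4 arrays 21 of 23 tested members had a ratio of 1 sign, a count not taken over all genes. In 17 of 23 the -F+S and normal culture signals did not overlap, against 61.2% of all genes tested. In bulk RNA of this kind, fewer cells of a type and less RNA per cell cannot be told apart.

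**Figure D1:**
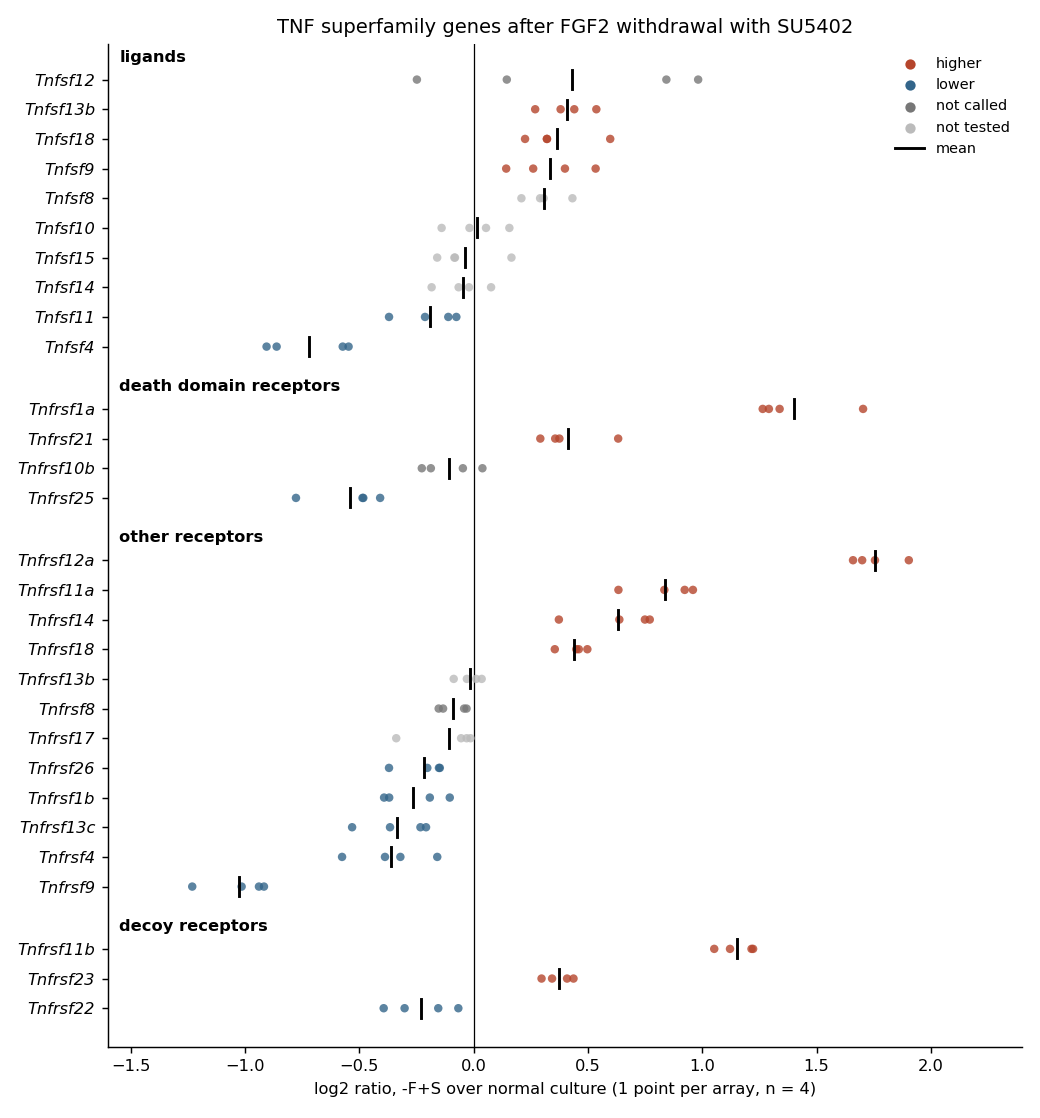
Log2 ratio of -F+S over normal culture (horizontal axis) for all 29 superfamily genes, grouped as ligands, death domain receptors, other receptors and decoy receptors. Each point is 1 of 4 arrays and the bar their mean, and colours give the call. Tnfrsf12a, Tnfrsf1a and Tnfrsf11b lie above 1 on every array, Tnfrsf9 lies lowest, and most other members lie within 1 log2 unit of 0.

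The members were read by 60-base oligonucleotide probes, and those behind the largest differences are shown by their first 30 bases, 5′ to 3′, since the values below are statements about these sequences.
Tnfrsf12a: agccttccaaggtgtccaattgccctatct
Tnfrsf1a: agcaatctttgtatcaattatatcacacta
Tnfrsf11b: tttatccagctgtcatgtctggttcagtat
Tnfrsf11a, brightest: atctagaccttaacagtaatccggcaggta
Tnfrsf11a, second: cgcagacttcactccatacccaggggtccg
Tnfrsf9, brightest: acctcatccaagtctcttctaacgctaaca
Tnfsf4: tgcagagtatacgagagatttttaccctga
Tnfsf12: tttgaaaagatactatttttattattattg
Probe positions are those of the scanner files in mm9. The Tnfrsf12a probe lies at chr17:23812746-23812805, that of Tnfrsf1a at chr6:125312376-125312435, that of Tnfrsf11b at chr15:54082760-54082819 and that of Tnfrsf9 at chr4:150319106-150319165. No annotation of that build was used here, so exon and untranslated positions are not given. The brightest Tnfrsf11a probe holds the 19-base stretch ATCTAGACCTTAACAGTAA at its base 1 and again at its base 30. The Tnfsf12 probe has a GC content of 18.3%, and the probes of Tnfrsf12a and Tnfrsf1a have 55.0% and 35.0%.

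Among the 10 ligands, 3 were higher in -F+S cells, 2 were lower, 1 was tested without a call and 4 were too dim to test. Beside these counts, and those by receptor kind below, 37.5% of all genes tested were higher and 30.9% lower. The clearest ligand was Tnfsf4, the OX40 ligand, a costimulatory ligand of antigen-presenting cells. Its normalised signal was 197, 168, 161 and 161 in -F+S cells on arrays 1 to 4, against 288, 306, 301 and 240 in normal culture. The highest -F+S value lies below the lowest normal culture value, and the fall was 1.65-fold (log2 ratio -0.72, SE 0.084, adjusted p 5.5e-05), or a log2 ratio of -1.30 with processed signals. Tnfsf11 (RANKL), which drives osteoclast formation through RANK, had a log2 ratio of -0.19 (SE 0.075, adjusted p 0.045) with overlapping signals, and leaving out any 1 array ended its call (adjusted p 0.051 to 0.22).

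Tnfsf13b (BAFF), a survival factor of B cells, was higher in -F+S cells with 371, 363, 441 and 394, against 285, 301, 325 and 271 in normal culture. Every -F+S value exceeds every normal culture value (log2 ratio 0.41, SE 0.072, adjusted p 8.1e-04). Tnfsf18, the GITR ligand, reached a log2 ratio of 0.37 (SE 0.080, adjusted p 0.0027), its normal culture signal being well above background on only 2 arrays. Tnfsf9, the 4-1BB ligand, had 475, 591, 497 and 571 in -F+S cells and 431, 448, 415 and 394 in normal culture (log2 ratio 0.33, SE 0.081, adjusted p 0.0050). The Tnfsf9 groups do not overlap, but the gap is narrow and the call was lost with the scanner's own LogRatio values (log2 ratio 0.21, adjusted p 0.085).

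Tnfsf12 (TWEAK), the ligand of Fn14, had the largest SE of the tested members. Its signal in -F+S cells was 340, 318, 327 and 344, while in normal culture it was 404, 287, 166 and 192. The spread thus lay in the normal culture channel, and the ratio was below 0 on array 1 and above 0 on the other 3 arrays. Its log2 ratio of 0.43 (SE 0.18, adjusted p 0.059, 95% interval 0.022 to 0.84) missed the threshold. Without replicate 1 it was 0.66 (adjusted p 0.0050). A separate probe carries the name of the Tnfsf12-tnfsf13 readthrough transcript. The naming rule does not take it, and it was chosen after its values were seen. Whether it also reads transcripts of either gene alone was not tested. This probe read 3725, 3502, 3258 and 3823 in -F+S cells and 1856, 1618, 1449 and 1661 in normal culture. Its groups lie far apart, with a log2 ratio of 1.12 (SE 0.069, adjusted p 7.3e-07).

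The remaining ligands gave no usable level. Tnfsf8 (CD30 ligand) and Tnfsf10 (TRAIL) were well above background on none of the arrays in either channel. Tnfsf14 (LIGHT) was so on 2 arrays in -F+S and 1 in normal culture, and Tnfsf15 (TL1A) on 2 in each. The Tnfsf8 ratios were 0.29, 0.31, 0.21 and 0.43, all of 1 sign, from signals of 108 to 122 in -F+S and 86.1 to 99.6 in normal culture that did not reach the background criterion.

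Of the 4 death domain receptors, 2 were higher in -F+S cells, 1 was lower and 1 was not called. Tnfrsf1a, TNF receptor 1, which signals from soluble and membrane-bound TNF to NF-kB or cell death, read 41716, 38053, 39274 and 39855 in -F+S cells, against 17372, 15052, 12066 and 16286 in normal culture. The -F+S values sit close together and far above all normal culture values. The difference was 2.64-fold (log2 ratio 1.40, SE 0.088, adjusted p 8.1e-07). Array 3 gave the widest ratio, 1.70, through a low normal culture signal.

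Tnfrsf25 (DR3), the receptor of TL1A, moved the other way. It read 7448, 6554, 6561 and 6476 in -F+S cells and 9890, 9159, 9191 and 11098 in normal culture. No -F+S value reaches the lowest normal culture value, and the log2 ratio was -0.54 (SE 0.080, adjusted p 2.6e-04). A second Tnfrsf25 probe gave -0.70. Tnfrsf21 (DR6), a receptor studied in neurons and T cells, had a log2 ratio of 0.41 (SE 0.078, adjusted p 0.0012) with overlapping signals, and its second probe gave 0.38. Tnfrsf10b, the mouse TRAIL receptor, was not called on its brightest probe (log2 ratio -0.11, 95% interval -0.27 to 0.061, adjusted p 0.23). Its other probes gave -0.41 (adjusted p 8.6e-04 over probes) and 0.095 (adjusted p 0.25 over probes). With the processing used here a fall was thus called only with its second brightest probe, whereas the scanner's LogRatio values called one on the brightest.

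Among the 12 receptors with neither a death domain nor a decoy role, 4 were higher in -F+S cells, 5 were lower, 1 was not called and 2 were too dim to test. Tnfrsf12a (Fn14), the receptor of TWEAK, named as a fibroblast growth factor-inducible gene, had the largest ratio of all members. It read 79889, 93363, 82705 and 84792 in -F+S cells, against 25298, 24969, 25481 and 25125 in normal culture. The normal culture values agree within a narrow band and every -F+S value is far above them, a 3.37-fold difference (log2 ratio 1.75, SE 0.072, adjusted p 5.8e-08).

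Tnfrsf11a (RANK), the receptor of RANKL, read 231, 260, 235 and 248 in -F+S cells and 149, 134, 132 and 131 in normal culture. The groups are separate, but normal culture was well above background on only 1 array. The log2 ratio was 0.84 (SE 0.077, adjusted p 1.1e-05) with the offset used here and 1.58 with the scanner's processed signals, which carry no such offset. Its second probe, above background on 2 arrays in -F+S and 1 in normal culture, gave ratios of 0.041, 0.21, -0.0059 and 0.0061, so the rise was seen with 1 of its 2 probes, the one with the repeated stretch. Whether that stretch bears on the signal was not tested.

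Tnfrsf14 (HVEM), which binds LIGHT and BTLA, read 249, 225, 257 and 228 in -F+S cells against 160, 134, 151 and 176 in normal culture, where it was well above background on 1 array. The groups do not overlap (log2 ratio 0.63, SE 0.083, adjusted p 1.2e-04), and a second, dimmer probe that shares bases with the first had ratios of 0.31, 0.40, 0.55 and 0.25. Tnfrsf18 (GITR), known from regulatory T cells, had a log2 ratio of 0.44 (SE 0.067, adjusted p 3.0e-04), with normal culture well above background on 3 arrays.

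Tnfrsf9 (4-1BB), a costimulatory receptor of activated T cells, fell furthest. It read 313, 335, 322 and 291 in -F+S cells and 633, 643, 608 and 682 in normal culture. The highest -F+S value is far below the lowest normal culture value, and the fall was 2.04-fold (log2 ratio -1.03, SE 0.077, adjusted p 2.7e-06). A second probe gave -1.01 (adjusted p 5.5e-06 over probes). The third probe, placed 5′ of both and above background on 1 array in each channel, had ratios of 0.044, 0.082, -0.068 and -0.15.

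Smaller falls were called for 4 more of these receptors. Tnfrsf4 (OX40) read 915, 852, 859 and 866 in -F+S cells against 1022, 1064, 1123 and 1290 in normal culture, with no overlap (log2 ratio -0.36, SE 0.082, adjusted p 0.0034). Tnfrsf13c, the BAFF receptor, had a log2 ratio of -0.33 (SE 0.078, adjusted p 0.0039), Tnfrsf1b (TNF receptor 2, which lacks a death domain) one of -0.26 (SE 0.076, adjusted p 0.012) and Tnfrsf26, an orphan receptor, one of -0.22 (SE 0.071, adjusted p 0.022) with overlapping signals, lost without replicate 1 (adjusted p 0.11). With median centring in place of loess, none of these 4 kept its call (adjusted p 0.090 to 0.37), while their ratios stayed below 0. The second Tnfrsf1b probe had a log2 ratio of -0.17 and missed the threshold as well (adjusted p 0.072 over probes). Tnfrsf8 (CD30) had a log2 ratio of -0.090 (95% interval -0.24 to 0.062), and the B cell receptors Tnfrsf13b (TACI) and Tnfrsf17 (BCMA) were well above background on none of the arrays.

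All 3 decoy receptors were called, beside 68.4% of all genes tested. Tnfrsf11b (osteoprotegerin), the secreted decoy that binds RANKL, read 9381, 9900, 8986 and 9811 in -F+S cells, against 4314, 4264, 4335 and 4207 in normal culture. Both groups are tight and well apart, a 2.22-fold difference (log2 ratio 1.15, SE 0.069, adjusted p 5.9e-07). The mouse TRAIL decoys moved in opposite directions. Tnfrsf23 had a log2 ratio of 0.37 (SE 0.067, adjusted p 9.0e-04) and Tnfrsf22 one of -0.23 (SE 0.077, adjusted p 0.025), the call of Tnfrsf22 being lost with median centring (adjusted p 0.37) or without replicate 2 or replicate 3 (adjusted p 0.098 and 0.099). These 2 genes and Tnfrsf26 are neighbouring paralogs whose probes lie within chr7:150793990-150854488 (mm9). How far each probe also reads its neighbours was not tested.

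**Figure D2:**
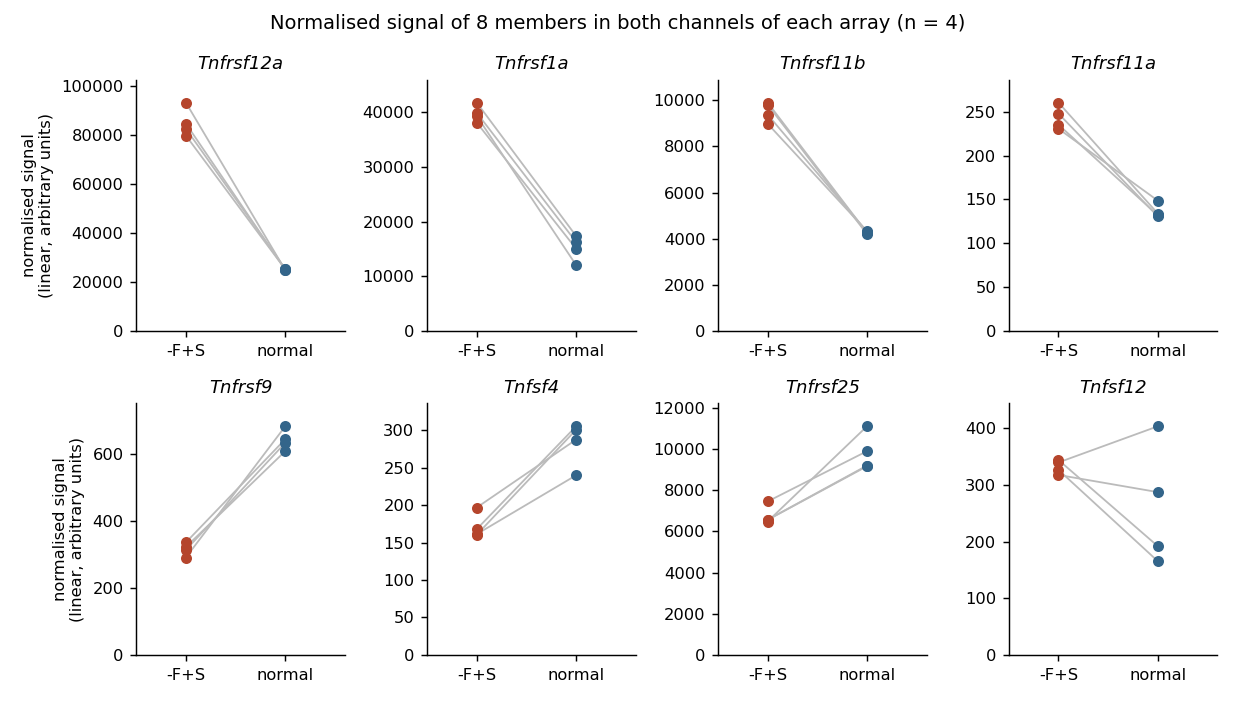
Normalised signal (vertical axis, linear and in arbitrary units, from 0) of 8 members in -F+S cells (left in each panel) and normal culture (right), with lines joining the channels of an array (n = 4). Tnfrsf12a, Tnfrsf1a, Tnfrsf11b and Tnfrsf11a are separate and higher in -F+S cells, Tnfrsf9, Tnfsf4 and Tnfrsf25 are separate and lower, and Tnfsf12 spreads from 166 to 404 in normal culture.

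Set out by ligand and receptor, the superfamily gave 15 known pairs among the members, of which 7 had both genes tested. The ligand and receptor were called in the same direction in 2 of these 7. Over all genes tested, 37.5% were called higher and 30.9% lower, and the pair counts were not tested against these shares. OX40 ligand and OX40 were both lower in -F+S cells (Tnfsf4 -0.72, Tnfrsf4 -0.36), and GITR ligand and GITR were both higher (Tnfsf18 0.37, Tnfrsf18 0.44), with normal culture well above background on 2 and 3 arrays. In 4 pairs the calls were opposite: 4-1BB was lower and its ligand higher (Tnfrsf9 -1.03, Tnfsf9 0.33), the BAFF receptor was lower and BAFF higher (Tnfrsf13c -0.33, Tnfsf13b 0.41), and both RANK (Tnfrsf11a 0.84) and osteoprotegerin (Tnfrsf11b 1.15) were higher while RANKL was lower (Tnfsf11 -0.19). The RANKL call in both of its pairs was lost when any 1 array was left out. RANK was well above background on 1 normal culture array, and its rise was seen with 1 of its 2 probes. For TWEAK and Fn14 only the receptor was called. In the other 8 pairs 1 or both genes were too dim to test, and that holds for every pair with TRAIL, LIGHT, TL1A or the CD30 ligand.

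TNF itself, whose gene name carries no number, was well above background on none of the arrays in -F+S cells and on all 4 in normal culture. It read 126, 125, 112 and 121 in -F+S cells against 215, 256, 257 and 233 in normal culture, at least 1.84-fold lower in -F+S cells (adjusted p 5.6e-06 for Tnf). A bound is given because the -F+S signal was not measured above background. Beside this, TNF receptor 1 was higher (Tnfrsf1a 1.40) and TNF receptor 2 lower (Tnfrsf1b -0.26).

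**Figure D3:**
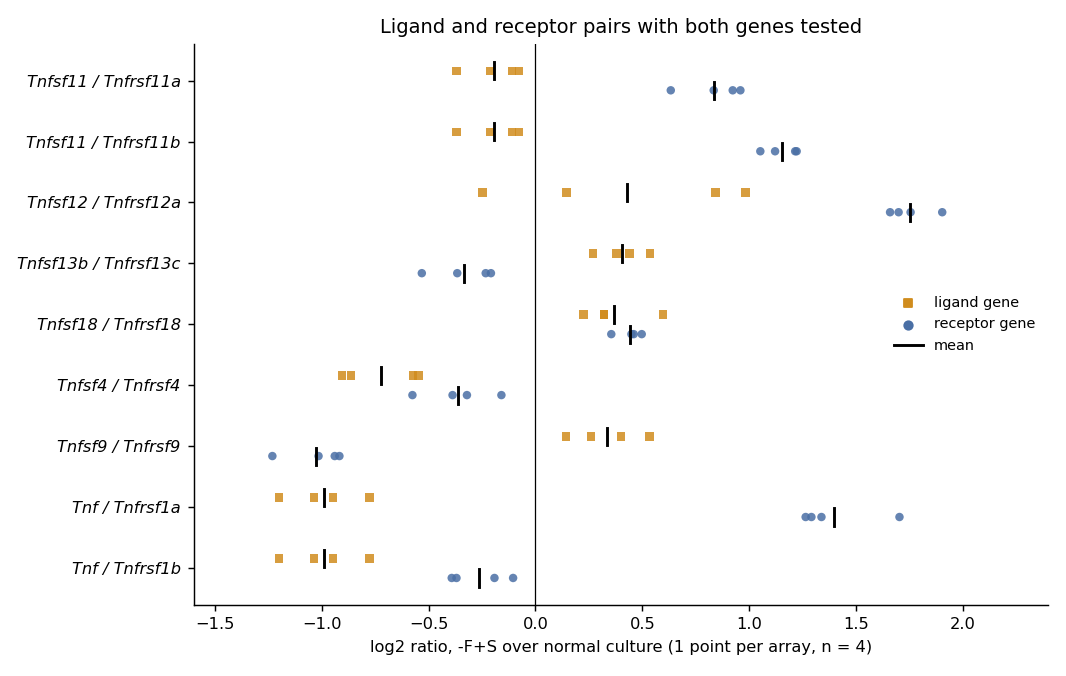
Log2 ratio of -F+S over normal culture (horizontal axis) for the 7 ligand and receptor pairs among the members with both genes tested, and for Tnf with its 2 receptors. Squares are ligand genes, circles receptor genes, 1 point per array (n = 4), and bars are means. The Tnf points rest on -F+S signals not well above background. RANKL, BAFF, 4-1BB and TNF receptor 1 pairs split to opposite sides of 0, whereas GITR and OX40 pairs lie on 1 side.

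Several members have more than 1 probe, 42 in all for the 29 genes, of which 30 passed the filter. Among the 6 members with at least 2 kept probes, Tnfrsf9, Tnfrsf25, Tnfrsf21, Tnfrsf1b and Tnfsf11 had the same direction on both. The Tnfrsf10b probes differed in sign, and with the processing used here only its second brightest probe was called. The second Tnfsf11 probe read 301, 306, 272 and 276 in -F+S cells and 401, 401, 369 and 337 in normal culture. These do not overlap, and the log2 ratio of -0.38 (adjusted p 0.0010 over probes) is wider than that of the brightest Tnfsf11 probe. Of the dim probes that the filter did not keep, the last of Tnfrsf21 (-0.040 to -0.11) and the second of Tnfsf13b (-0.10 to -0.18) lay below 0, opposite to their brightest probes, whereas the second of Tnfrsf14 (0.25 to 0.55) lay on the side of its brightest probe.

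**Figure D4:**
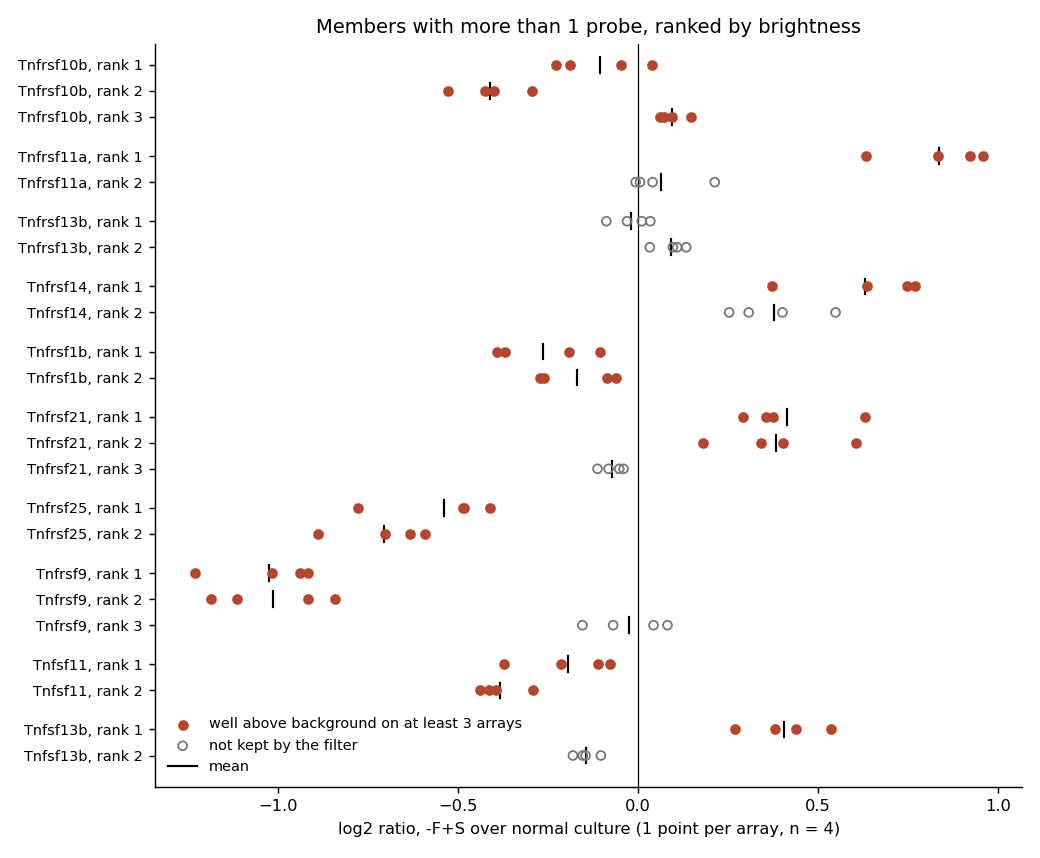
Log2 ratio of -F+S over normal culture (horizontal axis) for each probe of the members with more than 1 probe, ranked by brightness. Each point is 1 array (n = 4), bars are means, and open points mark probes not kept by the filter. Kept probes of Tnfrsf9 and Tnfrsf25 lie together, those of Tnfrsf10b spread from -0.53 to 0.15, and the dim second probes of Tnfrsf11a and Tnfsf13b lie near 0 or below it.

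Neighbouring members moved in the same or in opposite directions. On chromosome 7, Tnfrsf26 (-0.22) and Tnfrsf22 (-0.23) were lower and Tnfrsf23 (0.37) was higher. On chromosome 1, probes of Tnfsf4 (chr1:163348095-163348153) and Tnfsf18 (chr1:163434818-163434877) lie close together in mm9, and their log2 ratios were -0.72 and 0.37. On chromosome 4, Tnfrsf4 (chr4:155390635-155390694) and Tnfrsf18 (chr4:155402849-155402908) had -0.36 and 0.44. In these chromosome 1 and chromosome 4 pairs the OX40 system gene fell and the GITR system gene rose. Normal culture was well above background on only 2 arrays for Tnfsf18 and 3 for Tnfrsf18. The calls of Tnfrsf4, Tnfrsf22 and Tnfrsf26 were lost with median centring.

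Promoter windows, the 250 bases before an annotated start, were available from RefSeq (GRCm38.p6) for 22 of the 29 members, 25 windows in all. Searched on both strands, the kappaB letters (GGG, any 2 bases, then TTTCC) occurred in 1.41% of all 32851 windows and in a window of 2 members, Tnfrsf9 and Tnfrsf25. The other window of each lacks them. A member is counted if any of its windows holds the letters, whereas the shares are per window. Tnfrsf9 and Tnfrsf25 are receptors called lower in -F+S cells, as were 30.9% of all genes tested. The AP-1 letters TGANTCA occurred in 6.75% of all windows and in 4 members (Tnfrsf8, Tnfrsf9, Tnfsf13b and Tnfsf14), the GC box GGGCGG in 32.7% and 9 members, and TATAAA in 12.4% and 4 members. The motifs were chosen after the expression values were seen, and a match of letters is a description only. The windows below show the members with the kappaB letters and the member with the largest ratio, 5′ to 3′ on the gene's strand, with matched letters in capitals.
Tnfrsf9, chr4:150927749-150927998 (+): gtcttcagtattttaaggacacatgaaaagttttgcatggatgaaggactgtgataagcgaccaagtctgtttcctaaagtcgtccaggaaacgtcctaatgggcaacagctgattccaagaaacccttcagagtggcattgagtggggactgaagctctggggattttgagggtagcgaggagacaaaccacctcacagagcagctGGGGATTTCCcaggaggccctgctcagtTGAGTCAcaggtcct
Tnfrsf25, chr4:152115684-152115933 (+): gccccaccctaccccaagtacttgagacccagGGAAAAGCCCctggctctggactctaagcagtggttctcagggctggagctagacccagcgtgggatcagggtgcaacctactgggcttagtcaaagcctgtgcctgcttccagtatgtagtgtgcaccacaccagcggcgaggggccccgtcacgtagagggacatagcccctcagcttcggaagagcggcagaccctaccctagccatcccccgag
Tnfrsf12a, chr17:23677450-23677699 (-): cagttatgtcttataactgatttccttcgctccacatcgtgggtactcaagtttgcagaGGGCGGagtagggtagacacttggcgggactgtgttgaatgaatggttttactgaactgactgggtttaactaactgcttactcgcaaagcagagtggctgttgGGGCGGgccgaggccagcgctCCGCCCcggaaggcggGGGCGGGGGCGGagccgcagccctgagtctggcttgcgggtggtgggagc
In the Tnfrsf9 window shown, the first base of the kappaB letters lies 43 bases before the start. The AP-1 letters lie 15 bases before it, without overlap. The first 40 bases of this window are also the last 40 of the third, dim Tnfrsf9 probe. In the Tnfrsf25 window shown, the kappaB letters stand 218 bases before the start, on the opposite strand. The other Tnfrsf9 window (chr4:150919905-150920154) holds only a GC box, and the other Tnfrsf25 window (chr4:152116093-152116342) none of the 4 motifs. The Tnfrsf12a window holds the GC box letters 5 times and none of the other motifs, and that of Tnfrsf1a holds none of the 4.

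The other genes of the pathway were taken from lists of ligands, receptors, adaptors and NF-kB genes. Of 7 further TNF superfamily ligands on the array, 4 were tested and 3 were lower in -F+S cells: Tnf (above), Ltb (lymphotoxin beta, log2 ratio -0.60, adjusted p 4.2e-05) and Lta (lymphotoxin alpha, -0.21, adjusted p 0.038). Of 8 further receptors 7 were tested, and all were called. Of all genes tested, 68.4% were called in either direction and 30.9% were called lower. Ltbr, the lymphotoxin beta receptor (log2 ratio 1.44), the death receptor Fas (1.34) and the ectodysplasin A2 receptor Eda2r (1.09) were higher, while Cd40 (-0.75), Edar (-0.64), Relt (-0.53) and the nerve growth factor receptor Ngfr (-0.43) were lower.

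Downstream, 15 of 24 tested adaptors and proximal signalling genes were higher in -F+S cells and 4 were lower, against 37.5% and 30.9% of all genes. The deubiquitinase Cyld (log2 ratio 1.37, adjusted p 1.5e-07), the kinase Ripk1 (1.25), the TNF receptor 1 adaptor Tradd (1.21) and the TAK1-binding protein gene Map3k7ip2 (1.11) led the rises. Traf1 (-0.63), Traf3 (-0.50), the linear ubiquitin ligase gene Rnf31 (-0.39) and Map3k7, which encodes TAK1 (-0.35), were the 4 that fell. The median of this list was 0.36, or 0.18 with LogRatio, and with processed signals 9 of the 24 were called higher.

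Of 13 NF-kB subunits, inhibitors and kinases, 6 were higher and 4 lower. These shares of 46.2% and 30.8% stand beside 37.5% and 30.9% of all genes tested. Nfkb1 (log2 ratio 1.30), the inhibitors Nfkbie (0.74) and Nfkbia (0.41) and the kinase subunit Ikbkg (0.41) were among those higher, and Relb (-0.38), Nfkbib (-0.28), Bcl3 (-0.27) and Rela (-0.27) were those lower, all 4 of which lost their calls with median centring. Of 16 genes known to respond to NF-kB, 4 were higher (Gadd45b 1.94, Ier3 0.83, Vcam1 0.62 and Icam1 0.40) and 7 lower, led by the chemokine genes Ccl2 (-2.86), Ccl5 (-2.62) and Cxcl1 (-2.47), with Il6 at -0.75. The shares of this list called higher and lower were 25% and 43.8%. The list median was -0.12, moving to -0.28 with median centring, -0.24 with LogRatio and -0.012 with the second brightest probe (8 genes).

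Markers of several cell types also differed between -F+S and normal culture, and their part in these results was not tested. Beside the marker counts of this paragraph, 37.5% of all genes tested were called higher and 30.9% lower. Of 13 fibroblast markers 12 were higher in -F+S cells and 0 were lower (median log2 ratio 1.5), with a summed normalised signal of 1631000 to 1743000 in -F+S cells and 611400 to 684800 in normal culture. Of 11 tested Sertoli cell markers 11 were higher (median 2.31), their sum running from 502200 to 534000 in -F+S cells against 113300 to 120300 in normal culture. These stand beside the higher Tnfrsf12a, Tnfrsf1a and Tnfrsf11b. Of 13 macrophage and leukocyte markers 11 were lower and 2 higher (median -0.91), with sums of 58940 to 71710 in -F+S cells and 139900 to 164300 in normal culture. They stand beside the lower Tnf, Tnfrsf9, Tnfsf4 and chemokine genes, and beside higher values of other members known from leukocytes, such as Tnfrsf14 (0.63), Tnfrsf18 (0.44), Tnfsf13b (0.41) and Tnfsf9 (0.33). The 2 higher calls, Aif1 (log2 ratio 0.32) and Mpeg1 (0.29), were lost with processed signals, and no fibroblast, Sertoli cell or macrophage marker was below background on all arrays in both channels. Most of the macrophage sum was Lyz2, at 42850 to 55570 in -F+S cells and 101400 to 125300 in normal culture. Most of the Sertoli cell sum was Clu, at 292800 to 313300 in -F+S cells and 79450 to 86170 in normal culture.

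T and B cell markers were low in both. Of 10 such genes 4 were tested, 1 of them, Cd2, was lower in -F+S cells (log2 ratio -0.19, a call lost when any 1 array was left out; all 4 were called lower with LogRatio), and Cd8a, Ms4a1 and Foxp3 were well above background on none of the arrays. Their sums were 1552 to 1743 in -F+S cells and 1755 to 1844 in normal culture. Of 16 germ cell markers 9 were lower and 0 higher (median -0.28, or -0.47 with median centring), with sums of 403600 to 457300 in -F+S cells and 559000 to 598600 in normal culture. Endothelial markers were mixed, with 2 of 8 higher and 5 lower (1 lower with median centring), and overlapping sums of 11220 to 14400 in -F+S cells and 13580 to 15980 in normal culture. Beside the marker counts of this paragraph, 37.5% of all genes tested were called higher and 30.9% lower.

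**Figure D5:**
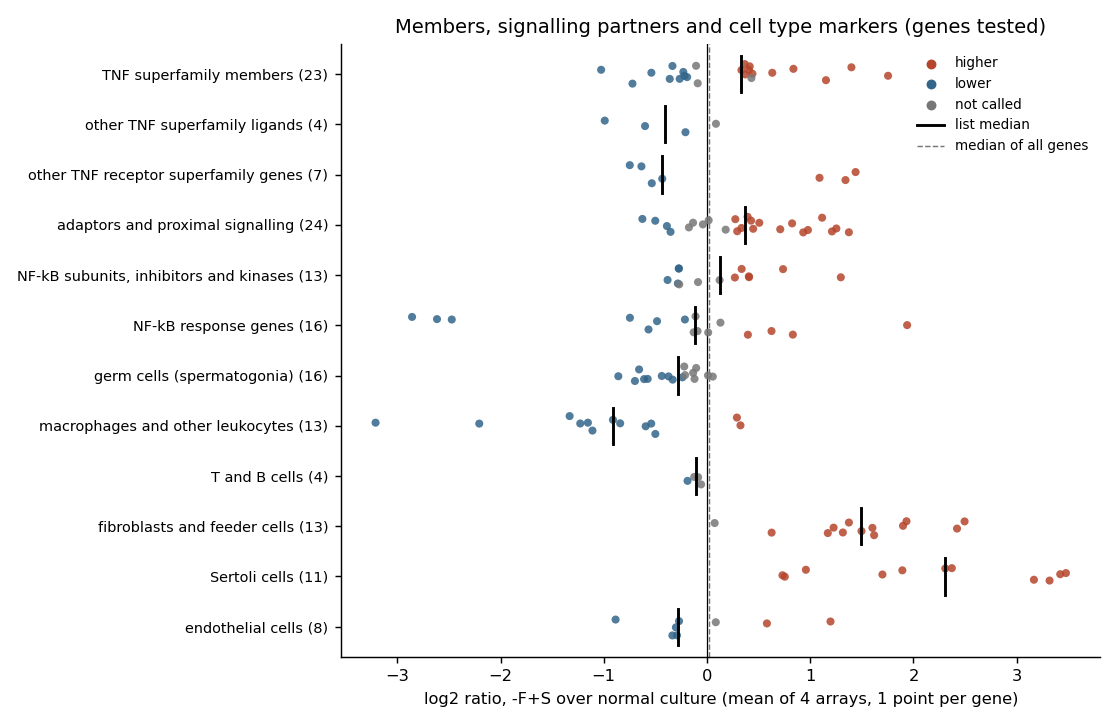
Log2 ratio of -F+S over normal culture (horizontal axis, mean of 4 arrays, 1 point per tested gene) for the superfamily members, further pathway lists and cell type markers, with the number of genes tested in parentheses. Bars are list medians and the dashed line is the median of all genes. Fibroblast and Sertoli cell markers lie to the right of 0, macrophage markers mostly to the left, and the superfamily members on both sides.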

How the data were processed

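Total RNA of 4 -F+S and 4 normal cultures was measured on 4 two-colour arrays, and samples were grouped by their titles. The authors deposited scanner intensity readings (linear), made per the file headers with version 10.5.1.1 of Agilent Feature Extraction, with local backgrounds, quality marks and processed signals. The deposited LogRatio is log10 of red over green, per the file headers. The deposited series matrix holds log2 values that equalled log2 of green over red processed signal for 100% of 41174 probes (within 0.001), with column medians of -0.262, 0.0114, 0.112 and -0.058.

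Background was corrected by normexp (offset 50) and ratios were normalized by loess with control spots at weight 0. The offset shrinks ratios of dim probes. Outlier spots (141 to 171 per array) were left out, spots of a probe averaged, and the brightest probe taken per gene name of the scanner files. Of 41174 probes 27730 passed the filter, which gave 18491 genes. Each gene's 4 ratios were set against 0 in limma's moderated test (lmFit, eBayes, version 3.58.1, with R 4.3.3 and data.table version 1.17.8), two-sided, with Benjamini-Hochberg adjustment over all genes. The array is the pair, as each holds 1 -F+S and 1 control sample, so the ratio is relative to each array's central trend. P-values measure the spread between 4 arrays, whose number limits the precision (median SD of a log2 ratio 0.147). Normalised signals are per channel after loess and Aquantile. The procedure was tested on simulated data. Every member is named, with kept second probes, and up to 4 called genes per list and direction by adjusted p. Members, lists and named genes were chosen with earlier results of these data known. Probe coordinates are mm9, and promoter windows are GRCm38.p6. The gene set aside by the naming rule is not reported here.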

Additional observations from a re-analysis of the deposited data

Results flagged for a closer look

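For Tnfrsf1a, array 3 lay apart from the others. Its log2 ratio of -F+S over normal culture was 1.7 on array 3, against 1.26, 1.29 and 1.34 on the remaining arrays. It was the only 1 of 23 tested members with an array so far from the rest by Dixon's criterion, and chance flags about 1 in 20 groups. Without replicate 3 the Tnfrsf1a log2 ratio was 1.30.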

How the results depend on the processing

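No member changed direction under any alternative run. With median centring in place of loess, 3 members and 3585 of all genes were called lower, against 9 and 5712 as reported, and Tnfrsf13c, Tnfrsf1b, Tnfrsf22, Tnfrsf26, Tnfrsf4 and Tnfsf11 lost their calls, while Tnfsf12 gained one (0.48, adjusted p 0.037). The median of the members turned below 0 without the filter (-0.018, 29 genes), with the filter in both channels on all arrays (-0.15, 18 genes, 7 called higher, against 11 as reported) and with the second brightest kept probe (-0.40, 6 genes, 1 higher and 4 lower). Fewer or dimmer genes enter those medians by construction. Over all genes, the second brightest probe left 6588 genes, 2468 higher and 1775 lower, against 6941 and 5712 of 18491, and the medians of the other TNF receptors (0.74) and of endothelial markers (0.21) turned above 0.

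Leaving out 1 array gave 11 to 12 members higher, 7 to 8 lower and a median of 0.25 to 0.40, with 6468 to 6768 of all genes higher and 5005 to 5398 lower. With no replicate block, the channels unpaired, 11 members were higher and 8 lower, with Tnfsf11 lost (adjusted p 0.38), and 6694 and 5474 of all genes. The array pairs the channels by design. Of all calls, 54.9% were higher as reported, 60.6% with median centring, 47.3% with median-centred processed signals, 41.7% with LogRatio and 41.6% with the series matrix. LogRatio and the series matrix put the median of all genes at -0.124, and there 10 members were higher and 10 lower, Tnfrsf10b being gained (-0.33) and Tnfsf9 lost.

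Processed signals gave ratios over 1.5 times as wide for Tnfrsf11a 1.58, Tnfrsf14 1.21, Tnfsf4 -1.30, Tnfsf18 0.66, Tnfrsf13c -0.67, Tnfrsf4 -0.58, Tnfrsf1b -0.46, Tnfrsf26 -0.45, Tnfrsf22 -0.41 and Tnfsf11 -0.40. Signal over background limits what the 6 untested members can show. Gene names updated through RefSeq left the probe and call of all 23 tested members as they were.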
